A study of Caenorhabditis elegans with 2 samples.

Results

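The genes described here are 9 genes of DNA replication, pcn-1, cdc-6, cdt-1 and mcm-2 to mcm-7, chosen by name out of 19973 protein-coding genes on the 6 chromosomes of Caenorhabditis elegans. What was measured at them is the chromatin occupancy of HIM-1, the SMC1 subunit of cohesin, by ChIP-seq. There was 1 group, made of 2 samples numbered as biological replicates: whole hermaphrodites of strain YL576, labelled L4/young adult. They had grown for 51 hours since their synchronization by bleaching and L1 starvation. The line stably expressed HIM-1 tagged at its C terminus with GFP and FLAG. The antibody is given as anti-GFP in one label and as him-1 in another. Whole worms were used, so a signal is over all their cells. No untagged immunoprecipitation and no second condition were analysed here, so the members are compared with each other and with all protein-coding genes, and no test between conditions was possible.

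Replication licensing marks each origin for a single round of replication. In G1 the origin recognition complex recruits CDC-6, an AAA+ ATPase, and CDT-1, and together they load the hexameric MCM helicase, whose subunits are encoded by mcm-2 to mcm-7, onto DNA. In S phase the helicase unwinds DNA, the ring-shaped clamp PCNA, encoded by pcn-1, tethers DNA polymerase, and CDT-1 is destroyed in a manner that depends on PCNA and the CUL-4 ubiquitin ligase. Cohesin holds sister chromatids together from replication onwards, and most dividing cells of worms at this stage are in the germ line. In many animals the genes of this group are transcribed under E2F and Rb family proteins, and E2F sites are letters such as TTTCGCGC.

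Among the members shown here, pcn-1 had an optimal HIM-1 peak, and mcm-2 and mcm-7 had weaker pooled entries. By the rule given below, mcm-6 had entries in the replicates' own lists alone, and mcm-5 had none. The sequences below show what lies upstream of these members. They were read from the RefSeq copy of WBcel235 (ce11), run 5′ to 3′ on the strand of the gene, and capitals mark an E2F-like match, except for mcm-2, where they mark a cyclic AMP response element (CRE). Positions count from the outermost annotated 5′ end of the gene, which is 0, and are negative upstream. For pcn-1 the 300 bases before the 5′ end are shown (chrIV:4049449-4049748, minus strand), which hold the summit of its peak at -258. The windows of mcm-5 (chrIII:4291437-4291476, minus strand), mcm-6 (chrIII:9794104-9794143 and chrIII:9794231-9794270, plus strand) and mcm-7 (chrV:4347002-4347041, plus strand) give each match with 16 bases on either side. The mcm-2 window (chrII:12006883-12006922, minus strand) is shown because its CRE lies beside the summit of the only pooled entry of that gene. That entry was weak, and replicate 2 did not list it. None of these windows overlaps an annotated exon.
pcn-1: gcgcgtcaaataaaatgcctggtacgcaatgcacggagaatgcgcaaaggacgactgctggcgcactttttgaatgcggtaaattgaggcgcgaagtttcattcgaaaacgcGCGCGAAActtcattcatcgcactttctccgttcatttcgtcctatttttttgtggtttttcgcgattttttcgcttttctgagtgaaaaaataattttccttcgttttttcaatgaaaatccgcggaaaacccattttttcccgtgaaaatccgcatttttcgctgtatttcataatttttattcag
mcm-5: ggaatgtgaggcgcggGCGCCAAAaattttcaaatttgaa
mcm-6 distal match: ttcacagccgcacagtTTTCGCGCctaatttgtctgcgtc
mcm-6 proximal match: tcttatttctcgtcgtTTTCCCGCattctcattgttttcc
mcm-7: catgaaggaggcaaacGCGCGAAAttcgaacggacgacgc
mcm-2: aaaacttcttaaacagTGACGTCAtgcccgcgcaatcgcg

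The values come from 4 lists of peaks deposited for ce11. The optimal list holds the 1797 peaks that passed the irreproducible discovery rate (IDR) procedure, with signal values from 102.0 to 1042. They are the 1797 highest of the 12228 entries in the list pooled from both replicates, which also holds background entries, as do the lists of replicate 1 (16213 entries) and replicate 2 (15469 entries). Signal values are the authors', on a scale that the sources used here do not give, and read depth is unknown. At optimal peaks the ratio of replicate 1 to replicate 2 signal had a median of 1.42 and quartiles of 1.17 and 1.74, so values are compared by rank within a list. An entry was assigned to a gene when its summit lay inside the gene or within 1000 bp of one of its annotated 5′ ends. The labels give the same control experiment for both replicates.

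Optimal HIM-1 peaks were found at pcn-1 and at cdc-6, where the pooled summit is nearer to the 5′ end of the neighbouring gene acin-1. Of the 9 members, 2 had an optimal peak (22.2%), pcn-1 and cdc-6, where 7.04% of all protein-coding genes had one. None of the 6 MCM genes had one, but 6 genes are too few to tell this from the 7.04% over all protein-coding genes. With 9 genes, 1 gene is 11.1% of the list, and no test was run on the difference in shares. Among entries of the pooled list, which reach into background, 7 of the 9 members had at least 1 (77.8%), against 31.2% of all protein-coding genes. The share was 63.6% among 44 other replication genes, which are described below. The members were longer than the typical gene, with a median of 3003 bp (1512 to 5117 bp) against 2027 bp. With gene bodies left out and summits within 1000 or 500 bp of a 5′ end counted, 2 members had an optimal peak. Of the 19973 protein-coding genes, 1216 had one within 1000 bp and 902 within 500 bp. At both windows 7 members had a pooled entry, but no such count over all genes is given. Whether gene length accounts for the difference in pooled shares was not tested. The highest pooled signal of the median member was 53.8, with the members that had no entry placed lowest, whereas the median protein-coding gene had no entry.

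**Figure D1:**
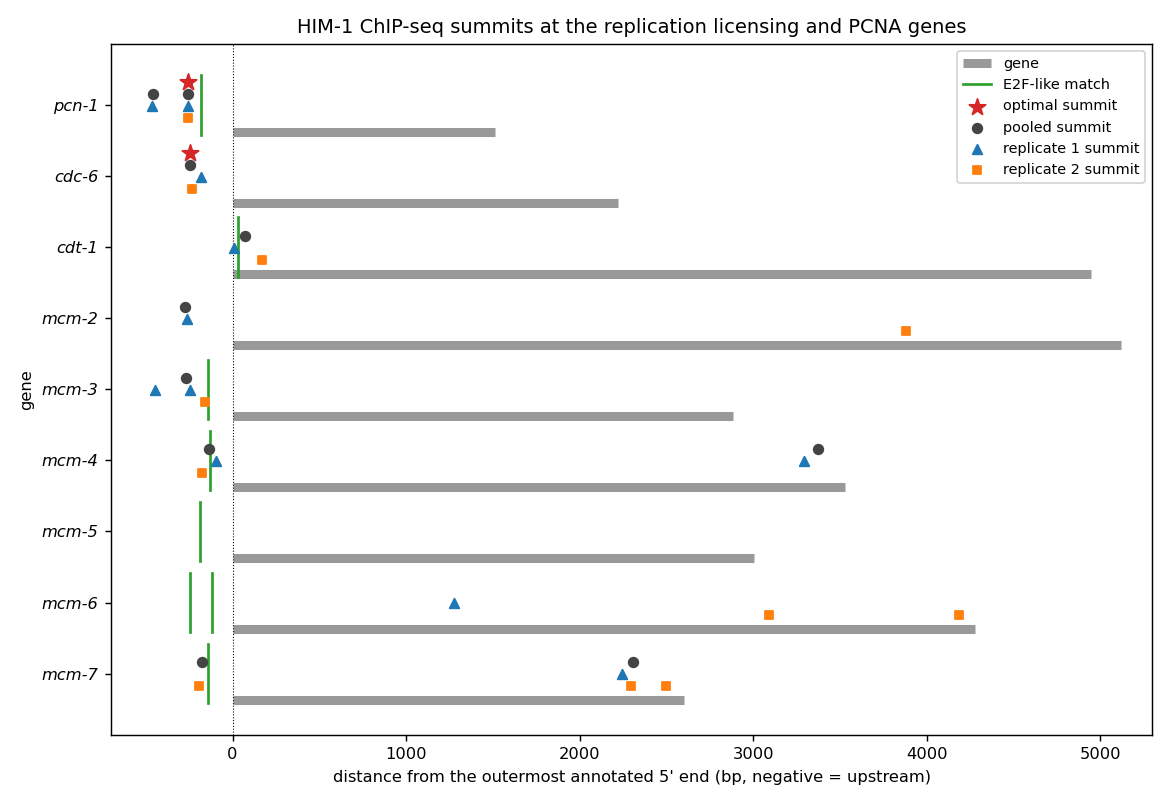
Positions of HIM-1 ChIP-seq summits at the 9 genes, as distance in bp from the outermost annotated 5′ end (negative is upstream); grey bars are the genes, green lines E2F-like matches in the promoter, stars optimal, circles pooled, triangles replicate 1 and squares replicate 2 summits. At 6 of the 9 genes a pooled summit lies upstream of the 5′ end within 500 bp, and mcm-5 has none in any list.

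pcn-1, the PCNA gene (WBGene00003955, chrIV:4047937-4049448, minus strand), carried the highest HIM-1 signal of the 9. Its optimal peak, at chrIV:4049471-4049940, had its summit 258 bp upstream of the 5′ end, outside any gene, and ranked 172 of 1797 with a pooled signal of 266. In the replicates' own lists the signal was 157 in replicate 1 (rank 177) and 106 in replicate 2 (rank 211). Both replicates placed the summit at the same base, and their ratio of 1.49 is close to the median of all optimal peaks. In all, 150 protein-coding genes (0.751%) had a higher pooled signal than pcn-1.

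A weaker pooled entry overlapped that peak on its upstream side, with its summit at -461 and a signal of 94.2 (rank 2058). It matched an entry of its own in replicate 1 (signal 89.4, rank 858), whereas replicate 2 listed only the main peak there. The next gene upstream, wrt-5, is on the same strand. By the same rule the main peak also counts for wrt-5, since it lies 868 bp downstream of an internal 5′ end of that gene, beyond its 3′ end. The GC content within 100 bp of the main summit was 45.8%, the same as the median of all optimal peaks, and at the weaker summit it was 24.4%.

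cdc-6 (WBGene00000382, chrI:4268070-4270287, minus strand) had an optimal peak in the lower part of the list. Its signal was 115, rank 1401 of 1797, at chrI:4270297-4270766 with the summit 245 bp upstream of cdc-6. Signals were 66.9 in replicate 1 (rank 1549) and 47.9 in replicate 2 (rank 1533), a ratio of 1.40, with summits 52 bp apart. A higher pooled signal was found at 1138 protein-coding genes (5.70%). This peak lies between 2 divergent genes. The 5′ end of acin-1, the acinus homologue on the plus strand, is 379 bp from that of cdc-6, and the pooled summit is nearer to it, at -134 from acin-1. Replicate 2 also placed its summit nearer to acin-1 (at -144 from it), while replicate 1 placed it nearer to cdc-6 (at -183 from it). Counting each summit only for the protein-coding gene with the nearest 5′ end left 1 member with an optimal peak, pcn-1 (11.1%), against 5.25% of all protein-coding genes.

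cdt-1, which encodes the other loading factor (WBGene00000413, chrI:3223160-3228104, minus strand), had no optimal peak. Its highest pooled entry, at chrI:3227799-3228268, had a signal of 49.3 and rank 8492 of 12228, with the summit 70 bp into the 5′ UTR. Replicate 1 gave 29.2 (rank 9824) and replicate 2 gave 19.0 (rank 13494), with summits 166 bp apart, in the 5′ UTR and in coding sequence. These ranks are in the lower part of every list. The authors' −log10 q-value of the pooled entry was 0.12, where cdc-6 had 2.97, mcm-3 1.71 and the upstream entry of mcm-4 1.04. cdt-1 was not alone in this, since mcm-2 had 0.21, the entries of mcm-7 0.18 and 0.10, and the coding-sequence entry of mcm-4 0.26. The nearest optimal summit lay 64781 bp from the 5′ end of cdt-1.

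**Figure D2:**
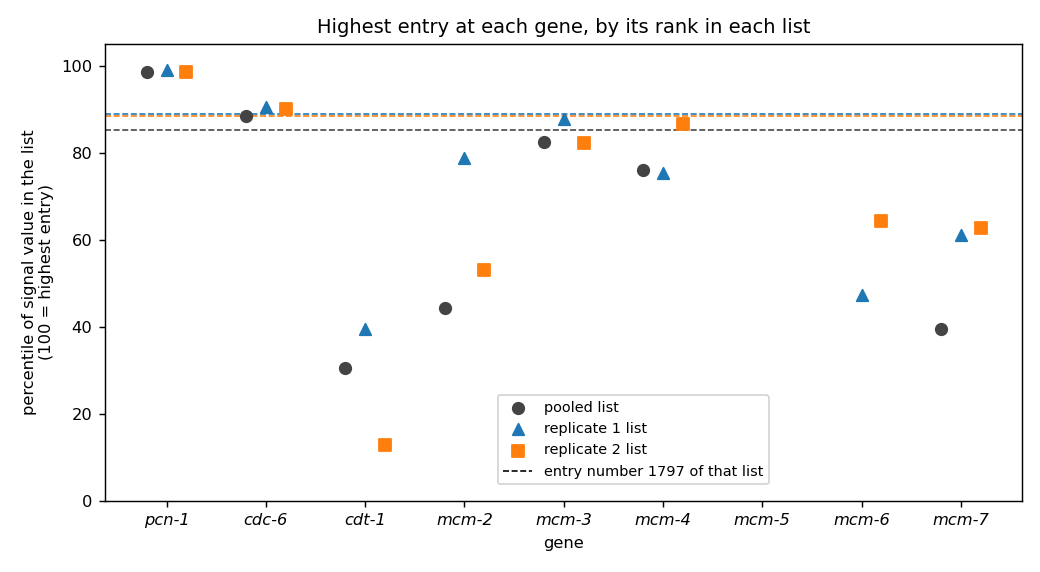
Percentile of the signal value of the highest entry at each gene within the pooled, replicate 1 and replicate 2 lists (100 is the highest entry of a list); dashed lines mark entry number 1797 of each list. pcn-1 and cdc-6 lie above the lines in all 3 lists, and cdt-1 and the MCM genes that have an entry lie below them.

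Among the MCM genes, mcm-3 came closest to the optimal list. mcm-3 (WBGene00003155, chrV:15056719-15059599, minus strand) had a pooled entry at chrV:15059630-15060099 with a signal of 92.2, which is 90.4% of the lowest optimal signal and 348 ranks below the end of that list. Signals were 58.7 in replicate 1 (rank 2004) and 35.7 in replicate 2 (rank 2756). The pooled summit, at -266, lay 57 bp inside the divergent gene C25D7.15, in its 5′ UTR, and the 5′ ends of the pair are 209 bp apart. The replicate summits were at -246 and -157, that of replicate 2 between the genes. Genes with a higher pooled signal than mcm-3 numbered 1644 (8.23%). A further replicate 1 entry at -447 had a signal of 28.8 and rank 10279.

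mcm-4 (WBGene00003156, chrI:2318291-2321817, minus strand), known from mutants as lin-6, had 2 pooled entries. The entry at chrI:2321716-2322185 had its summit at -134, a signal of 78.3 and rank 2923. Here replicate 2 was higher than replicate 1, with 41.1 (rank 2072) against 36.0 (rank 5826). That order was found at 11.7% of optimal peaks, of which this entry is not one. No share is given for entries of its own strength. The second entry, with a signal of 55.6, lay in coding sequence near the 3′ end of the gene, 205 bp from the 5′ end of a short annotated transcript. Replicate 1 listed an entry there (42.1, rank 3992) and replicate 2 listed none.

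mcm-2 and mcm-7 had weak entries that the replicates did not share in full. At mcm-2 (WBGene00003154, chrII:12001509-12006625, minus strand) the pooled entry at -273 had a signal of 53.8 (rank 6812). Replicate 1 listed 45.1 there (rank 3440, summit at -265), and replicate 2 had no entry at that site and its single entry, of 24.1, in an intron 3880 bp from the 5′ end. At mcm-7 (WBGene00003159, chrV:4347166-4349768, plus strand) the upstream pooled entry, at -175, had a signal of 48.0 (rank 9073) and an entry in replicate 2 alone (25.3, rank 6403). The other pooled entry of mcm-7 lay in coding sequence 2310 bp from the 5′ end, with a signal of 52.1 (rank 7386) and 35.0 in replicate 1 and 26.3 in replicate 2. A further replicate 2 entry, in the 3′ UTR of mcm-7, had 25.7.

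mcm-5 and mcm-6, both on chromosome III, had no pooled entry by this rule, though one overlapped the 3′ end of mcm-6. mcm-5 (WBGene00003157, chrIII:4288264-4291266, minus strand) had no entry in any of the 4 lists, the only member of which this is true. mcm-6 (WBGene00003158, chrIII:9794367-9798644, plus strand) had 1 entry in replicate 1 (31.0, rank 8539) and 2 in replicate 2 (18.2 and 26.7, in coding sequence and 3′ UTR), all at different places in the gene. The replicate 1 summit is in an intron of mcm-6 and also in coding sequence of another gene, srxa-10, 907 bp from its 5′ end. That entry can therefore belong to either gene. The pooled entry that overlaps mcm-6 had a signal of 66.6 (rank 4129), higher than any pooled entry of mcm-2, mcm-7 or cdt-1. Its summit, 4325 bp from the outermost 5′ end, lay just beyond the end of the 4278 bp gene, so the rule did not count it. The nearest optimal summits were 8811 bp from the 5′ end of mcm-5 and 13408 bp from that of mcm-6. Across the 9 members this distance had a median of 13408 bp (245 to 103548 bp), against 29014 bp for all protein-coding genes, and the farthest was that of mcm-7.

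**Figure D3:**
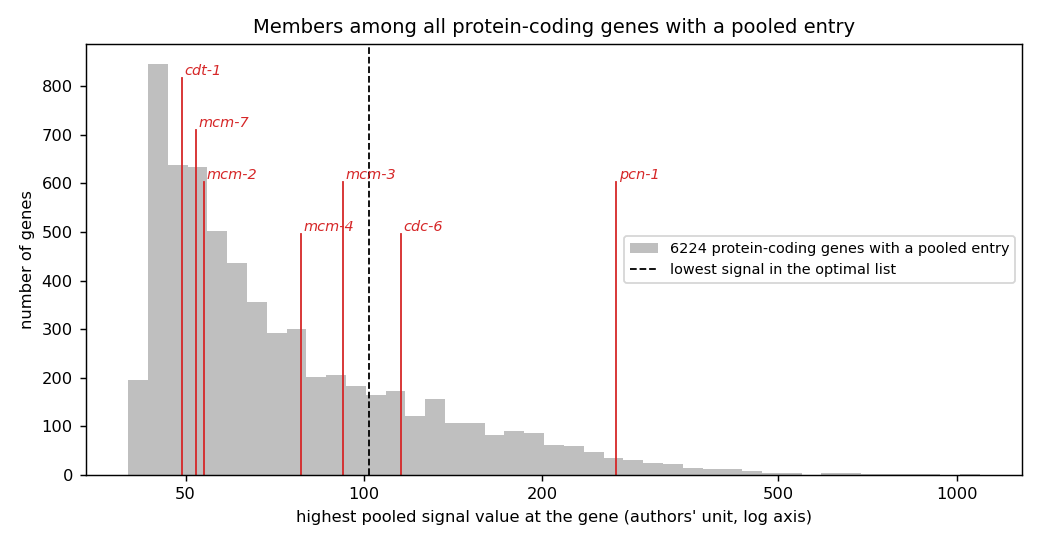
Distribution of the highest pooled signal per gene (log axis, authors' unit) over the 6224 protein-coding genes with a pooled entry, with red lines for the 7 members that had one; the dashed line is the lowest signal of the optimal list. pcn-1 at 266 and cdc-6 at 115 lie above it, and mcm-3 at 92.2 is the nearest below it.

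Pooled entries at the members lay mostly just upstream of the 5′ ends. Of 10 pooled entries, 7 had their summit 1 to 500 bp upstream, at 6 genes (66.7%), namely pcn-1, cdc-6, mcm-2, mcm-3, mcm-4 and mcm-7. This window was chosen after the positions were seen, and 14% of all protein-coding genes had a pooled entry in it. The highest upstream summit of each of these genes lay between -273 and -134. For 3 of the members another protein-coding 5′ end lies within 500 bp, so an upstream entry there can belong to either gene: acin-1 beside cdc-6, C25D7.15 beside mcm-3 and Y39G10AR.32 beside mcm-4. In worms many annotated 5′ ends are sites where a spliced leader is joined to the transcript, with transcription starting farther upstream. The letters AG stood right before the outermost 5′ end of 8 members (88.9%), all but cdt-1, against 27.6% of all protein-coding genes, and TTTCAG before 6 (66.7%), against 12.3%. Where a 5′ end is such a site, the distance does not run from a transcription start.

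Both replicates listed an entry by the rule at 8 members, all but mcm-5 (88.9%), and at 26.7% of all protein-coding genes. The share was also 88.9% in each list by itself, against 37.4% of all genes in replicate 1 and 39.4% in replicate 2. These unthresholded lists count entries anywhere in a gene, and at mcm-2 and mcm-6 the replicates' entries lay at different places. With gene bodies left out the count of 8 became 5 within 1000 or 500 bp of a 5′ end and 4 within 250 bp, and it was 3 by nearest 5′ end. The 26.7% belongs to the rule with gene bodies, and no share over all protein-coding genes is given for these narrower settings. Among the 1797 highest entries of each replicate, only pcn-1 and cdc-6 had an entry in both (22.2%), against 5.43% of all protein-coding genes. With a list of 3594 highest entries mcm-3 was added, and with 898 only pcn-1 was left. The 5.43% holds for the 1797 highest entries, and no share over all genes is given at these other cuts.

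**Figure D4:**
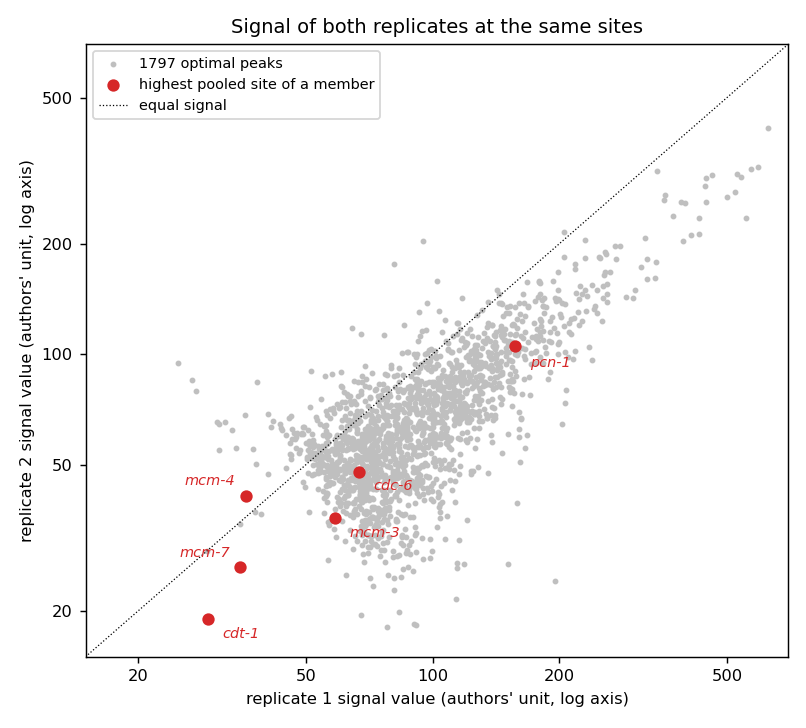
Signal of replicate 2 against replicate 1 (log axes, authors' unit) at the 1797 optimal peaks in grey and, in red, at the highest pooled site of each member with an entry in both replicates; the dotted line marks equal signal. pcn-1 lies in the upper part of the grey cloud, cdc-6 in its lower part, mcm-3 at its lower left edge, and mcm-4 is the one member above the dotted line.

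The genes whose promoter peaks were most like those of the members were found among 902 genes with an optimal summit within 500 bp of a 5′ end. Likeness was the distance between the pairs of signal percentiles in replicates 1 and 2 among optimal peaks, so it rests on 2 samples. pcn-1, at percentiles 90.1 and 87.8, was nearest to F37F2.2 (89.8 and 87.9) and rsr-1 (91.1 and 87.3). cdc-6, at 20.7 and 23.7, was nearest to C34D10.1 (19.9 and 23.5) and to rsp-6, an SR splicing factor gene (20.04 and 24.2).

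E2F-like letters lay in promoters of members with and without an optimal HIM-1 peak. A promoter here is the 250 bases before the outermost 5′ end and the 50 bases from it on, and the forms searched on both strands were TTTCCCGC, TTTCGCGC, TTTGCCGC and TTTGGCGC. A match lay in 7 of the 9 promoters (77.8%), against 4.69% of all protein-coding promoters. The form TTTCGCGC was found at 5 members, pcn-1, mcm-3, mcm-4, mcm-6 and mcm-7, and at all of these except mcm-6 it lay on the strand opposite to the gene, so that the strand of the gene reads GCGCGAAA. cdt-1 had TTTCCCGC, 28 bp into the transcript, mcm-5 had TTTGGCGC at -194, and mcm-6 had TTTCCCGC at -120 besides its distal match at -247. cdc-6 and mcm-2 had none. A match describes letters and not a bound site.

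A promoter match and an optimal peak were found together at 1 member. Of the 7 members with a match, pcn-1 had an optimal peak and 6 did not, while cdc-6 had an optimal peak without a match. The pcn-1 match, seen in capitals in its printed sequence, begins at -188, 70 bp downstream of the summit. A match lay within 100 bp of 4 of the 10 pooled summits at members (40%), against 4.56% of all pooled summits. These shares are not alike in placement, since 7 of the 10 summits lay within 500 bp upstream of a member's 5′ end. As 77.8% of the members' promoters hold a match, the 40% is not separate from the promoter count. The 4 summits are at pcn-1, cdt-1, mcm-4 and mcm-7, and the entries of cdt-1 and mcm-7 were weak (−log10 q-value 0.12 and 0.10). Over all protein-coding genes, 10.5% of the 936 with a promoter match had an optimal peak, against 6.88% of those without, a difference that was not tested. Within 100 bp of the summit an E2F-like match lay at 1 of the 2 optimal peaks of members, that of pcn-1, and at 6.34% of all optimal peaks.

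The other motifs were searched in the same promoters. No member's promoter held a GC box (GGGCGG), found in 7.83% of all promoters, a GAGA repeat (GAGAGAGA), found in 3.54% of promoters and at 13.1% of optimal summits, or a CRE (TGACGTCA), found in 1.51%. An E-box (CACGTG) lay in 1 promoter, that of cdc-6 (11.1%), against 5.82%. Beyond the promoter window mcm-2 held a CRE at -281 and another at -481, and the first ends next to its pooled summit at -273. That pooled entry was weak (rank 6812, −log10 q-value 0.21), and replicate 2 had no entry at the site. A CRE lay within 100 bp of 1.35% of all pooled summits. The median GC content of the members' promoters was 40%, against 34.3% for all promoters.

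**Figure D5:**
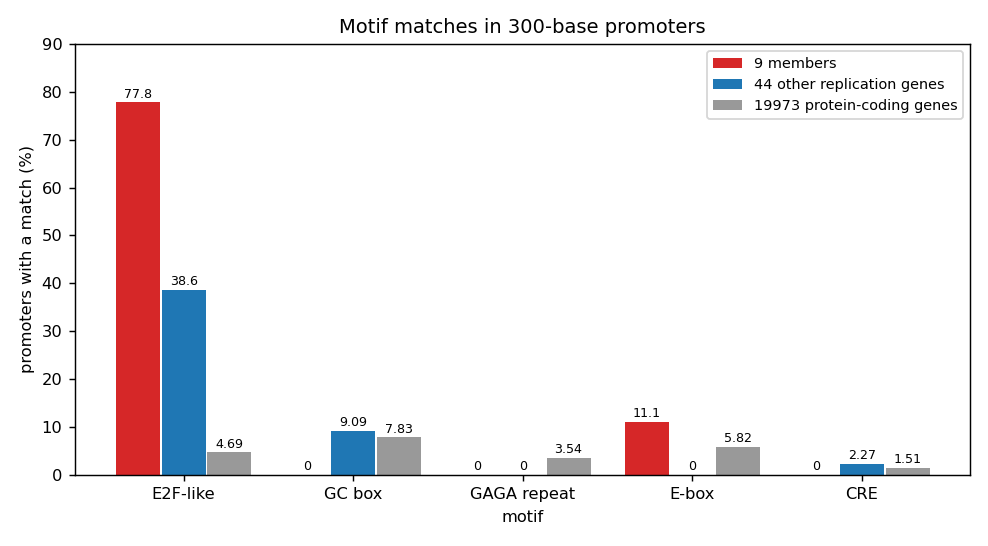
Percentage of 300-base promoters with a match to each motif on either strand, for the 9 members, 44 other replication genes and all 19973 protein-coding genes. The E2F-like bar is 77.8% for the members, 38.6% for the other replication genes and 4.69% for all genes.

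Other genes of replication were counted by the same rule, from a list of 47 symbols of which 44 matched the annotation. Beside the 2 of 9 members with an optimal peak (22.2%), 12 of these 44 had one (27.3%), and 7.04% of all protein-coding genes did. A pooled entry was found at 28 of the 44 (63.6%), and one 1 to 500 bp upstream of a 5′ end at 19 (43.2%). Both replicates' own lists held an entry at 24 (54.5%). The highest were at ctf-4 (signal 255, rank 199), whose yeast and human counterparts link the helicase to DNA polymerase alpha, rpa-2 (253, rank 202), a subunit of the single-strand binding protein RPA, and clsp-1 (249, rank 212), the claspin gene. The signals were 146, 150 and 155 in replicate 1 and 111, 104 and 85.4 in replicate 2 for ctf-4, rpa-2 and clsp-1 in turn. These 3 are close to pcn-1 in rank.

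Several of these peaks lie between closely spaced genes. The ctf-4 summit, at -150 from ctf-4, is at -30 from the elongation factor gene eef-1G, and the clsp-1 summit lies 13 bp inside eef-2. The peak of rfc-4, a clamp loader subunit (213, rank 358), has its summit at -9 from the microRNA gene cel-mir-5549, and that of tim-1, the Timeless homologue (120, rank 1309), at -53 from the SL2 gene sls-2.8. The peak of top-2, encoding topoisomerase II (192, rank 466), is nearer to npp-3, and that of mcm-10 (124, rank 1239), a replisome factor outside the hexamer, is at -267 from its own 5′ end and at -248 from teg-1. Peaks of the GINS gene psf-1 (136, rank 1022) and of pri-2 (113, rank 1460), the large primase subunit, lay at -157 and -179, and the psf-1 summit is at 26 from the 5′ end of the non-coding RNA gene R53.9. The rpa-2 summit was at -614. The remaining peaks, at sld-2 (-926), psf-3 (972) and cye-1 (995), the cyclin E gene, were the farthest from the gene named. They are nearer to larp-5 (-40), icd-2 (-364) and a tRNA gene (-2). Within 500 bp of a 5′ end 8 of the 44 had a peak, and counting nearest protein-coding 5′ ends only left 6 (13.6%), against 5.25% of all protein-coding genes. None of the origin recognition genes orc-1 to orc-5 had an optimal peak, nor did gmn-1 (geminin), cdt-2 or cul-4. These 8 were picked from the 44 after values were seen. They are too few to tell their lack of a peak from the 7.04% over all protein-coding genes. The highest pooled signal among these 8 genes was 88.4, at cul-4. The highest pooled signal was 53.8 for the median member and 53.5 for the median of these 44 genes.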

How the data were processed

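ChIP-seq of tagged HIM-1 in 2 replicates of 1 group was used as deposited narrowPeak lists in ce11. The deposited signal value is the authors', on a scale that no source used here gives. The −log10 q-value deposited with each entry was read and not used for ranking. Per the text deposited with the samples, replicates' and pooled lists hold peaks and background as input to IDR, with 1 control for all, and the optimal list is thresholded by IDR. The sources used here do not name the aligner or the caller, and depth is unknown. The ce10 lists were not used here. The sequence upstream of mcm-3 is not reported here.

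Gene models came from Ensembl release 115 (WBcel235, the assembly of ce11) and sequence from RefSeq's copy of that assembly. All 9 members matched by symbol. Summits are column 2 plus column 10 of each list. A pooled site was matched to the overlapping replicate entry with the nearest summit. Motifs were searched as fixed letters on both strands. Placement and motif search were tested on simulated data. No p-value was computed, since there is 1 group; counts stand beside those of all protein-coding genes. Members, lists and motifs were chosen with earlier results of these data known. Named genes are the 9 members, other replication genes with an optimal peak, genes that share a member's peak or have the nearest 5′ end, and for each optimal member peak the 2 genes most like it. A few further genes of the list and the letters before 5′ ends were chosen after values were seen. Alternatives changed the window, 5′ ends, threshold, replicates and motif distance. Python 3.11.15, NumPy 2.4.6 and matplotlib 3.10.9 were used.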

Additional observations from a re-analysis of the deposited data

How the results depend on the processing

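No paired analysis was possible because there is 1 group and no test. Of 51 comparisons with an alternative, 33 stayed within 1.5 times the reported count, or within 1 SD of the replicates, and 18 did not. The count of 2 members with an optimal peak was also found with 500 bp windows, with any overlap and with either replicate by itself (lowest and highest 2). It was 1 within 250 bp (cdc-6), with a stricter threshold that keeps the 898 highest peaks (pcn-1) and with nearest 5′ ends only (pcn-1, an alternative added after seeing the data). All protein-coding genes with a peak numbered 902 within 500 bp, 572 within 250 bp and 738 with the stricter threshold, against 1407, and 1350 to 1446 from a single replicate. The other replication genes numbered 6 within 250 bp, 7 with the stricter threshold and 6 by nearest 5′ end, against 12, and 10 from either replicate. Members with a pooled entry numbered 4 within 250 bp, against 7, and any overlap added mcm-6 (8). Members with an entry in both replicates' own lists numbered 5 with 1000 or 500 bp around 5′ ends and no gene body, 4 with 250 bp and 3 by nearest 5′ end, against 8. Among the highest entries of both replicates the count was 1 with 898 entries in place of 1797. For these alternatives on pooled and replicates' own lists, no count over all protein-coding genes is given. The percentile of the pcn-1 peak among optimal peaks was 90.5, and 87.8 to 90.1 from a single replicate; that of cdc-6 was 22.0, and 20.7 to 23.7. An E2F-like match within 50 bp of the summit was found at 0 of the 2 member peaks and at 57 of all optimal peaks, against 1 and 114 within 100 bp. Unknown depth limits any statement on the genes with no entry: weak occupancy there cannot be told from background in these lists.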
